A study of Mus musculus with 12 samples.

Results

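The insulin-like growth factor (IGF) axis was described through 10 genes of the 48321 listed in the expression matrix: the ligands Igf1 and Igf2, the receptors Igf1r and Igf2r, and the binding proteins Igfbp2, Igfbp3, Igfbp4, Igfbp5, Igfbp6 and Igfbp7. The genes were taken by symbol, as a family noticed because Igf1 and Igfbp4 rose in the Sema4B line by more than Sema4b itself. The 12 libraries came from immortalized murine brown adipocytes, a culture derived from interscapular brown fat of a newborn wild-type C57BL/6J mouse and immortalized with SV40 large T antigen. It was transduced with pLEX lentivirus, either empty (vector) or carrying a Flag-tagged truncated Sema4B (tSema4B) that stands in for the soluble semaphorin shed by ADAM17, and selected with puromycin to give 2 lines, 1 per construct. All cells were differentiated over 8 days, first with IBMX, rosiglitazone, dexamethasone, insulin and T3 and later with insulin and T3 alone, and then kept for 6 h in serum-free medium with albumin, without or with 2 μM norepinephrine (NE), the sympathetic transmitter that stimulates β-adrenergic receptors. Each of the 4 groups (vector and tSema4B, unstimulated and NE-stimulated) held 3 libraries. The labels call these technical replicates, so the p-values below measure only the spread between the libraries of a line, and a difference between the lines cannot be told apart from a difference between any 2 transduced cultures.

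IGF1 and IGF2 are secreted growth factors that act through the tyrosine kinase receptor IGF1R, while IGF2R carries no kinase, takes IGF2 into lysosomes and also sorts mannose 6-phosphate-tagged enzymes. In the extracellular space IGFs are held by IGF-binding proteins (IGFBPs), which can limit or prolong their action and are themselves cut by proteases such as PAPP-A (on IGFBP4) and PAPP-A2 (on IGFBP3 and IGFBP5). Adipose tissue makes IGF1 locally, and preadipocytes depend on IGF1R or insulin receptor signalling to differentiate.

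The libraries held between 2000780 and 5409583 reads on genes, and within each condition every vector library was deeper than every tSema4B library. Values are read counts normalised by the authors, and 9 of the 10 genes reached 10 normalised counts in at least 3 libraries and were tested among 11998 genes. All 9 held at least 23.6 normalised counts in every library, so none passed only through the group where it was highest. Of the adipocyte markers Adipoq, Plin1, Fabp4, Pparg, Cidec, Lep and Retn, 7 of 7 were detected above 3 reads in unstimulated cells of both lines, but their summed level was 27187 to 29744 in vector and 3511 to 5862 in tSema4B libraries, and after NE 39686 to 52029 and 5947 to 7069. Single markers of this list went different ways with NE. Of the 6 tested, 2 were called higher (Fabp4 and Retn) and 2 lower (Plin1 and Pparg) in vector cells, with a median log2 fold change of −0.019. In tSema4B cells 3 were called higher (Fabp4, Cidec and Retn) and 0 lower, with a median of 0.33. Of the 5 brown adipocyte markers, Dio2 was at 0 in all libraries and Ucp1 was at 0 in the unstimulated tSema4B libraries. This list summed to 97.5 to 121.6 without and 347.9 to 372.9 with NE in vector cells, and to 28.6 to 61.6 and 97.5 to 126.5 in tSema4B cells. Ucp1 was called higher with NE in both lines (log2 fold change 4.42 and 6.00), and Cidea, Ppargc1a and Prdm16 were not called. Between the lines, Ucp1 and Cidea were called lower in tSema4B cells in both conditions. Prdm16 (log2 fold change −1.17 without and −0.31 with NE) and Ppargc1a (0.41 and 0.36) were not called. The 7 progenitor or fibroblast markers summed to 4213 to 4477 in unstimulated and 3395 to 3539.6 in NE-stimulated vector cells, and to 6198 to 7133 and 5828 to 6321 in tSema4B cells. The macrophage list summed to 24.6 normalised counts or less, with Adgre1 and Ptprc at 0 throughout, and the endothelial list to 21.9 or less, with Kdr at 0. The mural list, nearly all of it Acta2, summed to 751 to 1149 without and 582 to 780.4 with NE in vector cells and to 1057 to 1154 and 480.04 to 813 in tSema4B cells, and Acta2 was lower after NE (log2 fold change −0.55, adjusted p = 0.0362, and −0.75, adjusted p = 0.00785). The share of normalised counts on mitochondrially encoded genes was 13.4% to 16.7% in vector and 6.91% to 7.89% in tSema4B libraries. The adipocyte, brown adipocyte and progenitor sums and the mitochondrial share thus differed between the lines. After NE, the adipocyte and brown adipocyte sums were higher in both lines, without overlap. The progenitor and mural sums were lower after NE, with overlapping ranges for the former in tSema4B and for the latter in vector cells. Single progenitor markers went different ways. In each line 1 of 7 was called higher with NE (Ly6a) and 3 lower (Pdgfrb, Cd34 and Dlk1). Their median log2 fold change was −0.16 in vector and −0.012 in tSema4B cells. In bulk RNA, fewer cells of a type cannot be told apart from less RNA per cell, and the part of cell composition, of the mitochondrial share and of depth in the values below was not tested.

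Igf1, the main growth factor of the axis (chromosome 10, 87858265 to 87937042, plus strand, GRCm38), was the member with the largest NE response in both lines. Unstimulated vector cells held 224, 186 and 176 normalised counts and NE-stimulated vector cells 49.7, 47.4 and 35.4. In tSema4B cells the values were 741, 583 and 695 without NE and 206, 233 and 207 with it. NE libraries lay below all unstimulated libraries of the same line, and the NE-stimulated tSema4B libraries overlapped the unstimulated vector libraries. The mean fell 4.42-fold in vector cells (log2 fold change −2.13 ± 0.16 SE, adjusted p = 1.22e-08) and 3.13-fold in tSema4B cells (−1.63 ± 0.16, adjusted p = 6.35e-07; limma with Benjamini-Hochberg adjustment over all genes tested). Among the 11998 genes, Igf1 stood at place 12 from the most lowered in vector cells and at place 90 in tSema4B cells. Both calls held in 24 of 24 alternative fits and when a log2 fold change of 1 was also required.

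**Figure D1:**
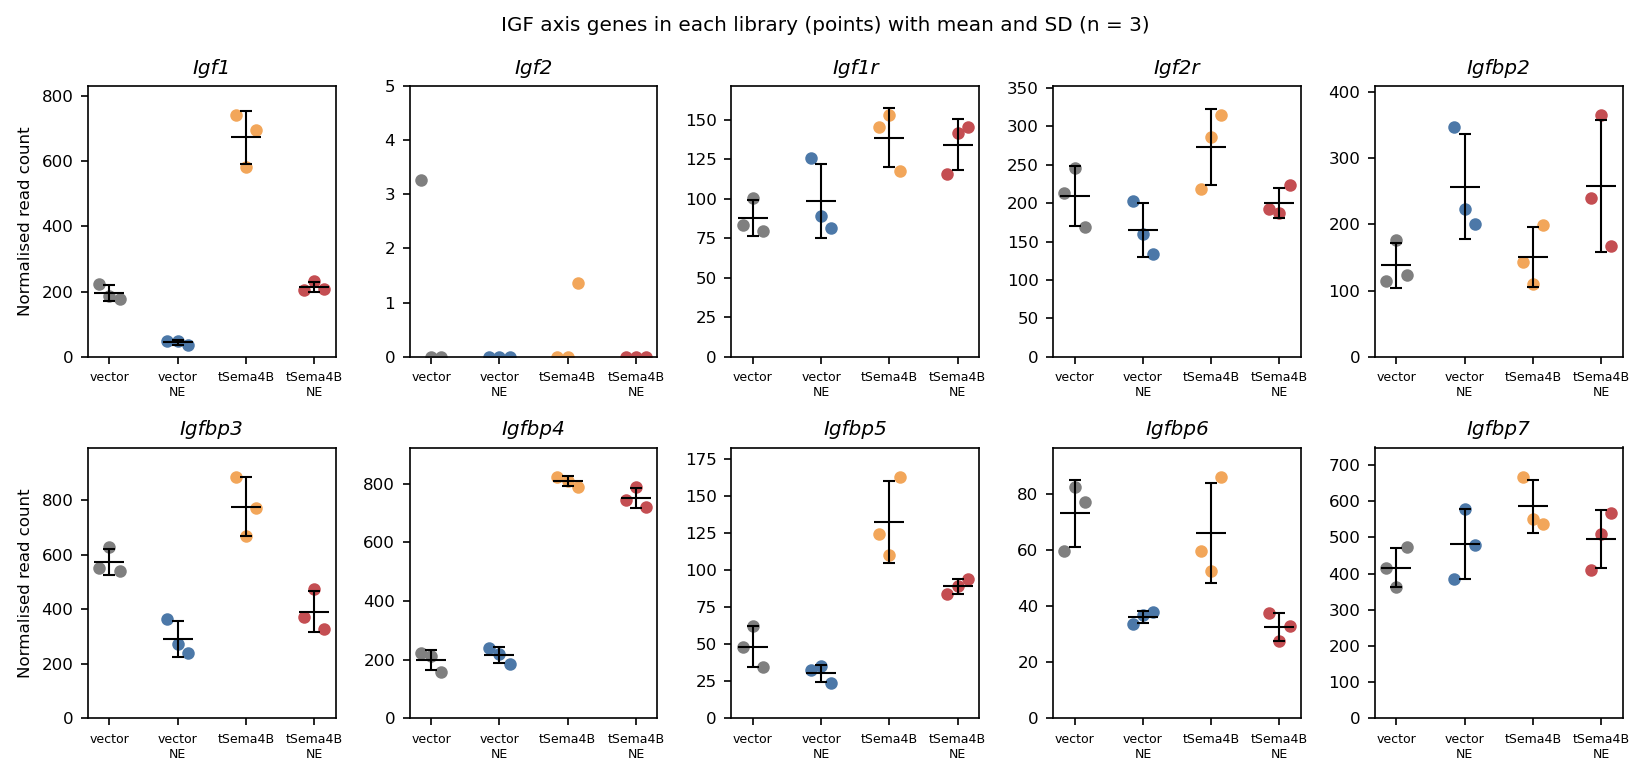
Normalised read counts (y axis, linear, from 0) of the 10 IGF axis genes in each library, grouped on the x axis by line and treatment, with points for libraries and bars for the mean and SD of 3 (omitted for Igf2). Igf1 fell with NE in both lines from different starting levels, Igfbp4 differed between the lines but hardly with NE, and Igf2 was at or near 0.

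The difference between the lines in Igf1 helped to choose the gene set and is given as a description without a test. The tSema4B mean was 3.45-fold the vector mean without NE (log2 fold change 1.78) and 4.88-fold with NE (2.27). The response to NE was 0.49 ± 0.23 (SE) log2 units smaller in size in tSema4B than in vector cells, a value that follows from the same 4 means and was likewise not tested. The bound in the choice was Sema4b itself, at a mean of 116797 normalised counts in vector and 281514 in tSema4B cells without NE (2.41-fold, log2 fold change 1.27) and 3.15-fold apart with NE (1.65), so that the increase was set against an already high level in the vector line. Just inside this bound in unstimulated cells lay Igfbp5 (2.74-fold) and just outside it Igf1r (1.58-fold). After NE, Igf1 (4.88-fold) and Igfbp4 (3.48-fold) were inside and Igfbp5 (2.93-fold) just outside.

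Igf2, the fetal growth factor of the pair (chromosome 7, 142650766 to 142666816, minus strand), was close to absent. It had 3 reads in 1 unstimulated vector library, 1 read in 1 unstimulated tSema4B library and 0 in the other 10. A count of 0 allows up to 3 reads, which corresponded to between 1.78 and 4.64 normalised counts depending on the library. In GENCODE, 3596 exon bases of Igf2 (62.8%) are shared with a readthrough gene, Gm49394, that was not listed in the matrix. Genes without reads were kept in the matrix, where 22569 of 48321 genes had a read. The annotation used for counting is not given, and whether the shared bases affected the Igf2 count was not tested.

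Neither receptor passed the test for an NE response in either line. Igf1r, the signalling receptor (chromosome 7, 67952827 to 68233668, plus strand), held 83.6, 101 and 79.5 normalised counts in unstimulated and 126, 88.9 and 81.8 in NE-stimulated vector cells, and 145, 153 and 118 against 116, 142 and 145 in tSema4B cells. The ranges of the treated and untreated libraries overlapped in both lines, with log2 fold changes of 0.15 (95% confidence interval −0.26 to 0.56, adjusted p = 0.722) and −0.04 (−0.46 to 0.37, adjusted p = 0.939). Between the lines, the unstimulated tSema4B libraries all lay above the vector libraries (1.58-fold), whereas the NE-stimulated libraries overlapped (1.36-fold). Igf2r, the clearance receptor (chromosome 17, 12682406 to 12769664, minus strand), ranged from 169 to 246 in unstimulated and 134 to 203 in NE-stimulated vector cells. Its range in tSema4B cells was 218 to 315 without and 187 to 223 with NE. The NE fold changes of Igf2r were −0.34 (adjusted p = 0.249) in vector and −0.43 (adjusted p = 0.171) in tSema4B cells.

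NE shifted the binding proteins in different directions. Igfbp3, the main carrier of IGFs in serum (chromosome 11, 7206086 to 7213923, minus strand), held 553, 629 and 540 normalised counts in unstimulated vector cells and 366, 272 and 238 after NE. In tSema4B cells it held 887, 670 and 772 without and 370, 474 and 329 with NE. Every NE library was below every unstimulated library of its line. Igfbp3 fell by 0.99 on the log2 scale in both lines (SE 0.15 in each), with adjusted p = 1.32e-04 in vector and 1.97e-04 in tSema4B cells, and both calls held in 24 of 24 alternative fits but were lost, by construction, when a log2 fold change of 1 was also required. The difference of the 2 responses was −0.0018 log2 units, with a 95% confidence interval of −0.44 to 0.44 (adjusted p = 0.999).

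Igfbp6, which prefers IGF2 to IGF1 (chromosome 15, 102144362 to 102149511, plus strand), fell at a lower level. Its values were 59.7, 82.4 and 77.3 in unstimulated and 33.6, 36.7 and 38.0 in NE-stimulated vector cells, and 59.6, 52.6 and 86.3 against 37.5, 27.5 and 33.0 in tSema4B cells. The treated and untreated ranges did not overlap in either line. The log2 fold changes were −0.99 ± 0.27 (SE, adjusted p = 0.0187) in vector and −0.97 ± 0.27 (adjusted p = 0.0309) in tSema4B cells. These calls were less firm than that of Igfbp3. The vector call was lost without unstimulated vector replicate 2 (adjusted p = 0.0866) or 3 (0.0702), or NE-stimulated vector replicate 1 (0.0666), 2 (0.0524) or 3 (0.0548). The tSema4B call was lost without unstimulated tSema4B replicate 1 (adjusted p = 0.0553) or 3 (0.137), without NE-stimulated tSema4B replicate 2 (0.101) or 3 (0.0589), when only the 6 tSema4B libraries were fitted (0.136), with no filter on low values (0.0561) and with reads thinned to the shallowest library (0.0698), while the log2 fold change stayed at −0.77 or below.

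Igfbp2, a carrier made by white preadipocytes as well as liver (chromosome 1, 72824503 to 72852474, plus strand), was the binding protein that rose. Vector libraries held 114, 177 and 124 normalised counts without and 347, 223 and 201 with NE, and tSema4B libraries 143, 110 and 200 without and 240, 365 and 168 with NE. In vector cells the groups did not overlap, while in tSema4B cells NE replicate 3 lay below unstimulated replicate 3. The log2 fold change of 0.87 ± 0.26 (SE) in vector cells passed the test (adjusted p = 0.0281), and that of 0.74 ± 0.26 in tSema4B cells did not (adjusted p = 0.0923). The difference between these responses was −0.14 log2 units (95% confidence interval −0.88 to 0.61, adjusted p = 0.934). The vector call was lost without unstimulated vector replicate 1 (adjusted p = 0.124) or 3 (0.0964) or NE-stimulated vector replicate 1 (0.175), with no filter on low values (0.0730) and with DESeq2 (0.0793), and the tSema4B response passed without unstimulated replicate 3 (0.0439) or NE-stimulated replicate 3 (0.0225) of that line. Igfbp2 and Igfbp5 are neighbours on chromosome 1, on opposite strands with 5457 bases between them, and their NE fold changes had opposite signs in both lines.

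Igfbp5, an IGFBP that also binds extracellular matrix (chromosome 1, 72857932 to 72874884, minus strand), was lower after NE without passing the test. Its 47.8, 62.2 and 34.9 normalised counts in unstimulated vector cells compared with 32.3, 35.0 and 23.6 after NE (log2 fold change −0.64 ± 0.26 SE, adjusted p = 0.119). In tSema4B cells it held 124, 110 and 163 without and 83.6, 89.0 and 93.8 with NE (−0.55 ± 0.26, adjusted p = 0.229). Only the tSema4B groups were separate. Between the lines, given as a description, the tSema4B libraries were all higher than the vector ones at the same treatment, 2.74-fold without and 2.93-fold with NE.

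Igfbp4, an IGFBP that inhibits IGF action until it is cut by PAPP-A (chromosome 11, 99041244 to 99054392, plus strand), had the largest difference between the lines among the 10 genes in unstimulated cells and did not change detectably with NE. Vector cells held 222, 213 and 159 normalised counts unstimulated and 241, 220 and 187 with NE. The corresponding tSema4B values were 825, 811 and 790 and 746, 789 and 721. The lines were far apart in either condition, while in vector cells the treated and untreated libraries overlapped and in tSema4B cells the NE libraries lay just below the unstimulated ones. NE fold changes were 0.13 (95% confidence interval −0.13 to 0.40, adjusted p = 0.587) in vector and −0.10 (−0.37 to 0.16, adjusted p = 0.720) in tSema4B cells. The line difference, again a description, was 4.09-fold without NE (log2 fold change 2.04 ± 0.13 SE) and 3.48-fold with NE (1.80 ± 0.13). For Igf1 and Igfbp4, which exceeded Sema4b in both conditions, the 95% confidence intervals of the NE response in the 2 lines ran together from −2.46 to −1.30 and from −0.37 to 0.40 log2 units.

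Igfbp7, a secreted IGFBP-related protein with weak affinity for IGFs (chromosome 5, 77349240 to 77408041, minus strand), held 415, 363 and 473 normalised counts in unstimulated and 385, 578 and 479 in NE-stimulated vector cells. In tSema4B cells the values were 669, 552 and 537 and 410, 508 and 568. Treated and untreated libraries overlapped in both lines, with log2 fold changes of 0.19 (adjusted p = 0.465) and −0.25 (adjusted p = 0.371). Of the 7 genes whose difference in NE response could be tested, Igfbp7 had the lowest p (difference −0.44, 95% confidence interval −0.87 to −0.01, adjusted p = 0.475). Its exons share 85 bases with the oppositely oriented Polr2b, and the strand setting of the counting is not given in the sources used here.

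In all, 4 of the 9 tested genes passed in vector cells, 1 higher and 3 lower, where 11.6% of all genes tested passed (6.82% higher and 4.78% lower). In tSema4B cells 3 of 9 passed, all lower, against 6.25% of all genes (3.68% higher and 2.58% lower). No gene of the set passed as higher there by limma, edgeR or DESeq2, and 1 (Igfbp2) had an unadjusted p under 0.05. Their median log2 fold change was −0.34 in vector and −0.43 in tSema4B cells, and that of all 11998 genes −0.02 and −0.0048. Igf1, Igfbp3 and Igfbp6 made up the lowered genes in both lines. The lines share no library in these comparisons. None of the 7 tested differences in NE response passed by limma, edgeR or DESeq2, and 1 (Igfbp7) had an unadjusted p under 0.05. Of all genes, 0.0250% passed by limma. With 3 libraries against 3, an exact permutation test of a single gene cannot go below p = 0.1, so the calls rest on the model fitted across all genes.

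**Figure D2:**
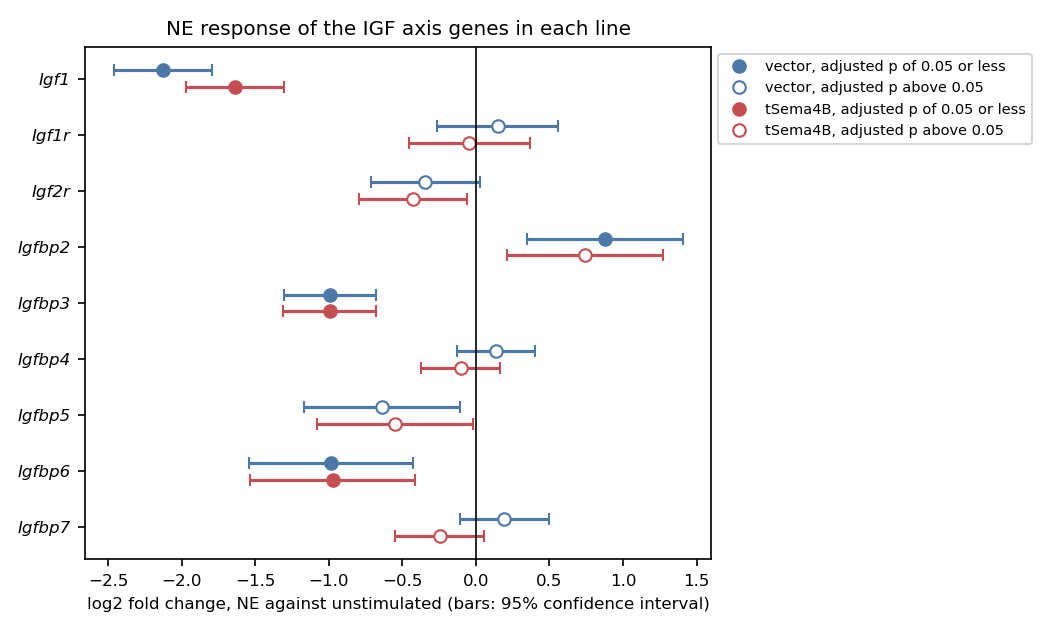
NE response of the 9 tested genes as log2 fold change (x axis) in vector cells (blue) and tSema4B cells (red), with 95% confidence intervals and filled points for an adjusted p of 0.05 or less. Igf1, at −2.13 and −1.63, and Igfbp3 and Igfbp6, near −1 in both lines, lay to the left, and Igfbp2 lay to the right.

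Between the lines, 3 of the 9 genes (Igf1, Igfbp4 and Igfbp5) were at least 1 log2 unit higher in tSema4B cells in each condition and 0 were that much lower. Of all genes tested, 2.61% were that much higher without NE and 3.23% with NE, and 4.78% and 5.68% that much lower. Since this contrast chose the set, nothing is read from these counts. Igfbp3 (1.35-fold without NE and 1.34-fold with it), Igfbp7 (1.41-fold and 1.03-fold) and Igf2r (1.30-fold and 1.22-fold) differed less, and Igfbp2 (1.09-fold and 1.00-fold) and Igfbp6 (0.90-fold in both conditions) hardly at all.

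The upstream sequences of the 3 genes lowered by NE in both lines, and of Igfbp4 as the member that differed most between the unstimulated lines, are shown to set out what lies before their starts. They are the 250 bases before the annotated RefSeq start on the gene's strand (GRCm38.p6, 5′ to 3′), for Igf1 at chr10:87860861-87861110 (plus strand), for Igfbp3 at chr11:7213924-7214173 (minus strand), for Igfbp6 at chr15:102143936-102144185 (plus strand) and for Igfbp4 at chr11:99040994-99041243 (plus strand). Capitals mark the letters TATAAA, the core of the TATA box, on either strand.
Igf1: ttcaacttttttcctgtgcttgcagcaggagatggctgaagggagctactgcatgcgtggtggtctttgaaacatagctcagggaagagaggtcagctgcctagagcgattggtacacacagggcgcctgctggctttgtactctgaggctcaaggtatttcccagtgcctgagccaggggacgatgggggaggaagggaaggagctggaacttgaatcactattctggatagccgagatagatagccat
Igfbp3: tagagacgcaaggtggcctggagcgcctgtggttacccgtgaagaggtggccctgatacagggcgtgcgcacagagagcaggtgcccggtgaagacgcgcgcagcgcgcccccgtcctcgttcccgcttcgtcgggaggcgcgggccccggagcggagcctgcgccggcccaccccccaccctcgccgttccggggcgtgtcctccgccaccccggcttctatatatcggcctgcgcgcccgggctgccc
Igfbp6: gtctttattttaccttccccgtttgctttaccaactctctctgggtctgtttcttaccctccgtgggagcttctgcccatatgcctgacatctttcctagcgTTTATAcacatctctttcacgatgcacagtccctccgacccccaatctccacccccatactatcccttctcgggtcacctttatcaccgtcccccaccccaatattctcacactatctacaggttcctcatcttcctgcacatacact
Igfbp4: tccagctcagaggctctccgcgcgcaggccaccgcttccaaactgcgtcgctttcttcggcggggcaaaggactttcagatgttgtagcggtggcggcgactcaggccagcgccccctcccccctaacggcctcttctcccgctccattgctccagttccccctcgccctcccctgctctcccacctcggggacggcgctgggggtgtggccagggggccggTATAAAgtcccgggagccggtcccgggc
Igfbp4 held TATAAA on its own strand, 28 bases before the start, and Igfbp6 held it on the other strand, 148 bases before. Igf1 and Igfbp3 did not hold these letters, which occurred in 12.4% of 32851 promoter windows of this length. The search took these exact letters only. Variants, such as the alternating run of t and a near the end of the Igfbp3 window, were not marked. The cAMP response element TGACGTCA and its shorter form TGACG, to which factors activated by β-adrenergic signalling bind, were searched on both strands. Neither was in these 4 windows. The full element occurred in 1.55% and the shorter form, which every full element also contains, in 17.8% of all windows. Among the 14 windows of the 10 genes, TGACG was found only in those of Igf2 (1 site in 1 of its windows) and Igf2r (200 and 51 bases before the start). GENCODE places the first base of Igf1 upstream of its window, so other starts of the gene are not covered. For Igfbp6 the first base in GENCODE (102144362) lies past the end of the window (102144185), and the bases between them were not searched.

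To compare genes with each other, normalised counts were divided by the length of merged exons in kilobases. In unstimulated vector cells Igfbp7 led at 345 per kb, followed by Igfbp3 at 183, Igfbp2 at 74.9, Igfbp6 at 65.8, Igfbp4 at 44.8, Igf2r at 22.5, Igf1 at 19.7, Igfbp5 at 8.04 and Igf1r at 5.24. Neighbouring levels of Igfbp2 and Igfbp6, of Igf2r and Igf1, and of Igfbp5 and Igf1r overlapped between libraries. In unstimulated tSema4B cells Igfbp4 stood after Igfbp7 and Igfbp3 at 183 per kb, and Igf1 reached 68.0, within the ranges of its neighbours Igfbp2 (81.7) and Igfbp6 (59.5). After NE, Igf1 in vector cells fell to 4.46 per kb, overlapping Igfbp5 at 5.04, which in turn overlapped Igf1r at 5.88. In NE-stimulated tSema4B cells Igfbp4 (170.3 per kb) ranked after Igfbp7 and overlapped Igfbp2 (139.6), and Igf1 (21.8) overlapped Igf2r (21.6). Parts of this order depended on the length used. With the longest transcript in place of merged exons, Igf1 (27.7 per kb) stood above Igf2r (23.6) in unstimulated vector cells. In NE-stimulated tSema4B cells Igfbp2 (197.3) then stood just above Igfbp4 (196.3), and Igf1 (30.5) above Igf2r (22.6).

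The 6 IGFBPs together summed to 722 ± 25.4 (SD, n = 3) normalised counts per kb in unstimulated vector cells and 717 ± 56.9 after NE. In tSema4B cells the sum was 1079 ± 97.7 and 889 ± 93.0. The vector sums overlapped between treatments although individual IGFBPs moved. Igfbp2 stood at 10.4% ± 2.38 of the vector sum without and 19.5% ± 5.99 with NE, and Igfbp3 at 25.4% ± 2.14 and 13.0% ± 2.89. Igfbp4 made up 6.23% ± 1.23 and 6.83% ± 0.72 of the sum in vector cells without and with NE, and 17.1% ± 1.49 and 19.3% ± 1.56 in tSema4B cells. Igfbp7 had the highest level per kb in all 4 groups, at 44.9% to 55.4%. For every 100 per-kb counts of IGFBP, Igf1 stood at 2.74 ± 0.45 in unstimulated and 0.62 ± 0.082 in NE-stimulated vector cells, and at 6.29 ± 0.25 and 2.45 ± 0.12 in tSema4B cells. These ratios are of mRNA and were not tested. They rest on merged exon lengths, for Igf1 9904 bases against 7052 in its longest transcript.

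**Figure D3:**
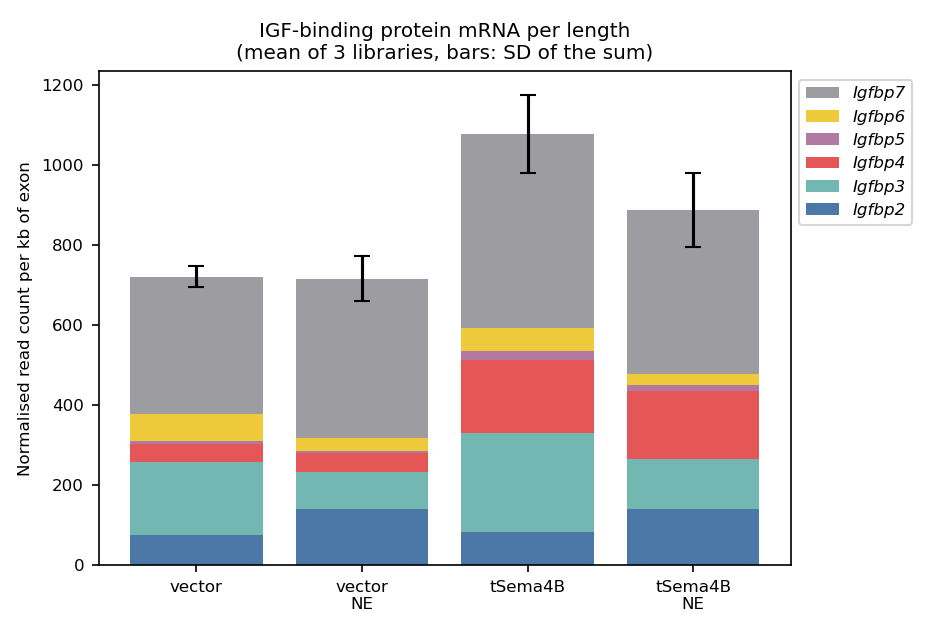
Normalised read count per kilobase of exon (y axis, from 0) of 6 IGFBPs, stacked as means of 3 libraries in each group, with bars for the SD of the sum. Igfbp7 makes up the largest layer in each group, the Igfbp4 layer is wider in both tSema4B groups, and the Igfbp2 layer is wider and the Igfbp3 layer narrower after NE.

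The rest of the axis was read from a list of 28 genes, of which 22 passed the filter. Igfbp1 and Adam28 had 0 reads in all libraries, and Igfbp1 lies 3539 bases from Igfbp3 on chromosome 11. NE raised 1 of 22 and lowered 4 (Gab1, Ghr, Grb10 and Shc1) in vector cells, and raised 1 and lowered 1 (Ghr) in tSema4B cells. Of all genes tested, 6.82% were raised and 4.78% lowered in vector and 3.68% and 2.58% in tSema4B cells, so the counts in tSema4B cells were near the background. The gene raised in both lines was Pappa2, the protease for IGFBP3 and IGFBP5. Its vector libraries held 26.1, 29.4 and 9.80 normalised counts without and 116, 77.6 and 58.3 with NE, and its tSema4B libraries 35.8, 12.4 and 28.8 without and 161, 146 and 135 with NE. NE libraries were above the unstimulated ones in each line (log2 fold change 1.98 ± 0.39 SE, adjusted p = 0.00172, and 2.60 ± 0.39, adjusted p = 1.77e-04), on 8 to 35 reads per library without NE. Pappa2 therefore moved in the direction opposite to Igfbp3, at a far lower count. The median log2 fold change of the 22 genes was −0.01 in vector and 0.0035 in tSema4B cells.

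Of the 5 listed genes of growth hormone signalling (Ghr, Jak2, Stat5a, Stat5b and Socs2), only Ghr was called in any comparison. The median NE log2 fold change of the 5 was −0.21 in vector and 0.12 in tSema4B cells. Ghr, the growth hormone receptor upstream of Igf1 transcription, was picked out after its values were seen. It fell from 801, 827 and 808 to 539, 522 and 606 normalised counts in vector cells (log2 fold change −0.55 ± 0.11 SE, adjusted p = 0.00237) and from 1105, 1160.2 and 1001 to 822, 638 and 914 in tSema4B cells (−0.47 ± 0.11, adjusted p = 0.0117). Treated and untreated libraries were separate in both lines. Between the lines it was higher in tSema4B cells without NE (0.42 ± 0.11, adjusted p = 0.0140) and with NE (0.50 ± 0.11, adjusted p = 0.00275). Its NE call in tSema4B cells was lost without unstimulated replicate 2 (adjusted p = 0.0526) or NE-stimulated replicate 2 (0.0826) of that line or with only 6 libraries fitted (0.0566), and its line call without NE was lost without unstimulated vector replicate 1 (0.0538) or unstimulated tSema4B replicate 2 (0.0612).

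Between the lines, 5 of the 22 genes passed as higher in unstimulated tSema4B cells (Adam9, Ghr, Grb10, Htra1 and Igf2bp2) and 0 as lower, where 5.64% of all genes passed as higher and 7.39% as lower. Insr and Irs1 were lower at an unadjusted p under 0.05, and edgeR and DESeq2 likewise called 0. With NE, 6 were higher (Adam9, Gab1, Ghr, Grb10, Htra1 and Shc1) and 4 lower (Igf2bp3, Insr, Irs1 and Irs2), against 9.79% and 11.2% of all genes. The largest of these was Irs2, a docking protein of the insulin and IGF1 receptors, at 74.6, 68.8 and 61.5 normalised counts in NE-stimulated vector and 41.8, 19.9 and 22.5 in NE-stimulated tSema4B cells, where the groups did not overlap (log2 fold change −1.32 ± 0.34 SE, adjusted p = 0.00768). Its unstimulated libraries overlapped (29.3, 34.5 and 61.0 in vector, 39.3, 30.9 and 23.3 in tSema4B cells). None of the 22 genes passed the test of a difference in NE response by limma or edgeR, and 1 did by DESeq2. Of all 11998 genes, 3 passed by limma, 4 by edgeR and 101 by DESeq2. Of the 22 genes, 3 (Gab1, Grb10 and Shc1) had an unadjusted p under 0.05 by limma. These list counts moved with single libraries. Higher calls for NE in vector cells were 2 or 3 without unstimulated vector replicate 2 or without tSema4B unstimulated replicates 2 or 3 or NE replicate 1, and lower calls were 2 without any 1 unstimulated vector library or NE-stimulated vector replicate 2 and 1 without NE-stimulated vector replicate 3. Higher calls in tSema4B cells were 2 or 3 without vector unstimulated replicates 2 or 3, tSema4B unstimulated replicate 2 or tSema4B NE replicate 1, and the lower call was lost without tSema4B NE replicate 2. For the lines without NE, higher calls were 2 without vector replicate 1 and 3 without vector replicate 2 or tSema4B replicates 1 or 2, and 1 lower call appeared without tSema4B replicate 3. With NE, lower calls were 2 without vector replicate 1 or 3.

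**Figure D4:**
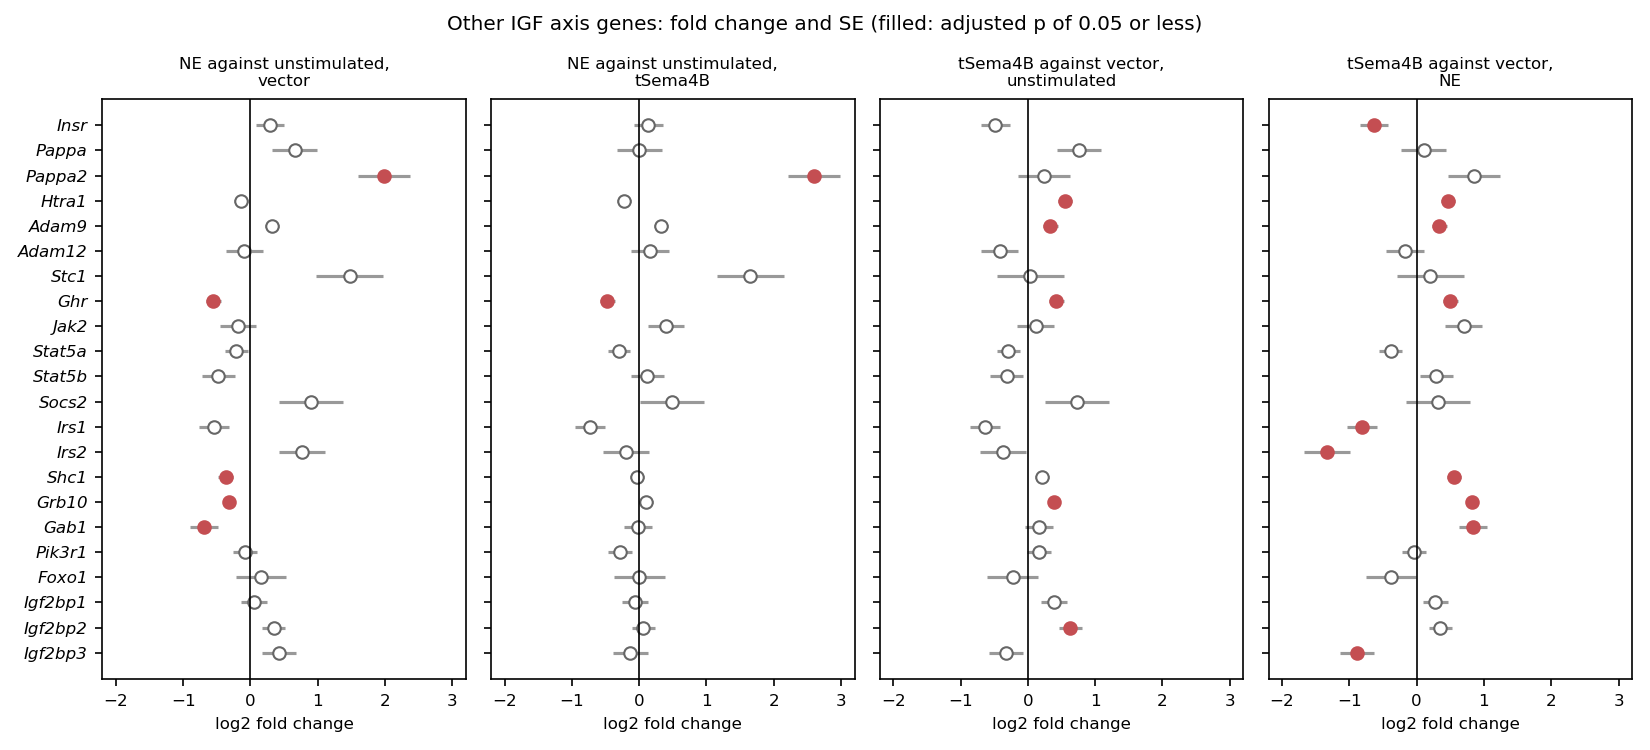
Log2 fold change (x axis, bars for the SE) of 22 further IGF axis genes in 4 comparisons, filled where the adjusted p was 0.05 or less. Pappa2 stood apart at 1.98 and 2.60 in the NE comparisons, and Irs2 at −1.32 between the lines after NE.

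The genes whose pattern was most like that of Igf1 across the 12 libraries, by Pearson correlation of log2 values among 8251 genes with a mean of at least 50 normalised counts, were Vasn (r = 0.984), Sqstm1 (0.983), Dlk1 (0.981), Mxra8 (0.977) and Egr1 (0.975). Dlk1, a preadipocyte factor that is also one of the progenitor markers above, averaged 1781 in unstimulated and 1216 in NE-stimulated vector cells, and 2298 and 1782 in tSema4B cells, a narrower range than that of Igf1. For Igfbp4 they included the collagen gene Col3a1 (0.982), St7 (0.979), Socs5 (0.972) and Aebp1 (0.970). Col3a1 averaged 6905 and 6490.4 normalised counts in vector cells without and with NE and 14462 and 14650.1 in tSema4B cells. The 12 points form 4 groups that share lines and treatments, so these correlations describe shared group means and carry no p.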

How the data were processed

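RNA of the 12 samples was converted to full-length cDNA (SMART-Seq2), fragmented (Nextera XT) and sequenced single-end. The authors removed non-murine reads with FastQ Screen, mapped the rest with STAR 2.7.9a to mm10 (GRCm38.p4) and counted them per gene with htseq-count; the annotation, strand setting and treatment of multimapped reads are not given in the sources used here. The deposited values are a signal, gene counts divided by DESeq2 size factors. The low values of each library gave whole reads for 100% of values (tolerance 0.01), and the recovered reads, 2000780 to 5409583 per library, entered the edgeR and DESeq2 alternatives. These totals bound the precision of low genes.

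Groups were taken from the labels. Differences were tested with limma 3.58.1 (R 4.3.3) on log2(normalised count + 1) with 1 mean per group over all 12 libraries and a variance trend, two-sided, and p-values were adjusted by Benjamini-Hochberg across 11998 genes with at least 10 normalised counts in 3 or more libraries. Calls required an adjusted p of at most 0.05. Fold changes on this scale understate the change of low genes, and ratios of means are given beside them as fold. The script was tested on simulated data. Replicates of a group differed by more than sampling noise (chi-square per degree of freedom 3.65 to 6.12), so none was a library deposited again; this does not show that they were separate cultures. Same-numbered libraries did not deviate together (18 pairs, r from −0.05 to 0.028, 0 over 0.1). Alternatives used edgeR 4.0.16, DESeq2 1.42.0, other pseudocounts, filters and scalings, 6 libraries only, a replicate block and each library left out.

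Positions and exon lengths were from GENCODE M21 transcripts of GRCm38, matched by symbol, and promoter windows from RefSeq (GRCm38.p6), which matched 10 of 10 genes. The TATAAA search was added after the windows had been read. The text names the 10 genes, Sema4b, listed genes called with a log2 fold change of 1 or more in size, and the 5 genes most like Igf1 and Igfbp4, of which 1 is not reported here; any other gene is named within a count or as picked out later. The members and lists were chosen with earlier results of these data known.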

Additional observations from a re-analysis of the deposited data

How the results depend on the processing

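The calls for Igf1 and Igfbp3 held under each of 24 alternative fits in both lines, and 0 of 7 differences in NE response were called under any. Adding the replicate block gave 1 higher and 3 lower in vector and 0 higher and 3 lower in tSema4B cells, the same counts as without it, and since the pairing check was negative it is only a setting. Requiring a log2 fold change of 1 as well left 0 higher and 1 lower in vector and 1 lower in tSema4B cells (Igf1 in both, with Igfbp3 and Igfbp6 lost). The higher call in vector cells (Igfbp2) was also lost with no filter and with DESeq2 (0 in each). Leaving out 1 library gave 0 to 1 higher and 2 to 3 lower in both lines.

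For the further IGF axis genes, higher calls for NE in vector cells were 3 with pseudocount 10, a filter at 50, DESeq2 or 6 libraries, 2 with quantile scaling, edgeR or reads thinned to the shallowest library (added after seeing the data), and 1 to 3 leaving out 1 library. Lower calls were 2 with no filter, 0 with the fold required, and 1 to 4 leaving out 1 library. In tSema4B cells higher calls were 2 with pseudocount 10, a filter at 50, edgeR or DESeq2, 3 with equal totals over all or nuclear genes, and 1 to 3 leaving out 1 library. The lower call became 0 with 6 libraries or the fold required, and 0 to 1 leaving out 1 library. Between lines without NE, higher calls were 0 with the fold required and 2 to 5 leaving out 1 library, and lower calls were 1 with equal nuclear totals and 0 to 1 leaving out 1 library. With NE, higher calls were 0 and lower calls 1 with the fold required, and leaving out 1 library gave 5 to 6 and 2 to 4. DESeq2 called 1 difference in NE response, and 101 over all 11998 genes. The cause of these shifts was not tested, except that a required fold can only remove calls. Fits with fewer libraries both gained and lost calls.

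Signs also turned, for uncalled values. The Igfbp3 difference in NE response was 0.0677 with equal totals, 0.0347 with equal nuclear totals, 0.00256 with quantile scaling and 0.0884 thinned, and ran from −0.15 to 0.17 leaving out 1 library. That of Igfbp6 was −0.000927 with edgeR and −0.13 to 0.22 leaving out 1 library. The NE fold change of Igf1r ran from −0.037 to 0.27 in vector and −0.16 to 0.0588 in tSema4B cells, and that of Igfbp4 in vector cells from −0.0145 to 0.24. Over the alternatives the difference in NE response ran from −0.42 to 0.14 for Igfbp2, −0.24 to 0.073 for Igf2r and −0.11 to 0.30 for Igfbp5. The difference between lines ran from −0.11 to 0.31 without and −0.31 to 0.25 with NE for Igfbp2, and with NE from −0.0998 to 0.19 for Igfbp7 and −0.25 to 0.0533 for Igfbp6. Depth limits Igf2 and Pappa2, which had few reads.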
